A study of Mus musculus with 6 samples.

Results

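Fatty acid uptake was followed through 9 genes: the membrane transporter gene Cd36, the lipase gene Lpl and its capillary partner Gpihbp1, the binding protein genes Fabp3, Fabp4 and Fabp5, the acyl-CoA synthetase gene Acsl1, the droplet coat gene Plin2 and the nuclear receptor gene Pparg. They are 9 of the 41388 genes with a deposited count, were matched by symbol, and were selected from genes whose difference between these same samples was already known, so their group differences are given as a description without p-values. Tumor-initiating cells (TICs), sorted by their CD24+CD90+CD45- profile, were sequenced in 3 samples. The other 3 samples held non-CD24+CD90+ tumor cells, named comparison cells below. Both groups came from primary mammary tumors of 12-week-old female MMTV-PyMT mice of the strain FVB/N-TgN(MMTVPyVT)634Mul/J, in which a mouse mammary tumor virus promoter drives the polyoma middle T antigen in mammary epithelium. Every mouse in both groups carried this transgene, no treatment is given for either group, and each sample pooled 4 cell sorts. The series text calls the comparison cells negative for both markers, whereas the study's methods describe all CD45- cells outside the double-positive gate. The study calls the 3 samples of a group biological triplicates, and any p-value here measures the spread between such pools. Whether both groups were sorted from the same mice is not clear from the sources used here.

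Cells obtain fatty acids from the blood in steps. Lipoprotein lipase, made by parenchymal or stromal cells, is carried across the capillary wall by GPIHBP1 and releases fatty acids from circulating triglyceride. CD36 helps them across membranes, fatty acid binding proteins carry them in the cytosol, acyl-CoA synthetases trap them as CoA esters, and perilipins coat the droplets in which they are stored. PPARG, a nuclear receptor that pairs with RXR, switches on several of these genes in adipocytes. In the mammary gland this route feeds milk fat, and Cd36, Fabp4 and Gpihbp1 are also known as genes of capillary endothelium.

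Total counts ranged from 6781239 to 8450038 in comparison cells and from 8114933 to 9100552 in TICs, so that 3 counts correspond to between 0.33 and 0.442 CPM, the count relative to the library total. A count of 0 in one sample is weaker evidence than this floor implies, because 19.3% to 39.6% of the genes predicted at 20 to 60 counts from the rest of the group were at 0 in a given sample, most often in TIC replicate 3. CPM values are normalized by TMM, edgeR's scaling between samples. Thy1, the gene of CD90, measured 75.9, 56.7 and 21.6 CPM in comparison cells and 90.7, 206.9 and 70.3 CPM in TICs, so that TIC replicate 3 lay below one sample of the other group. Cd24a, the gene of CD24, measured 402, 404.5 and 602 CPM in comparison cells and 440, 315 and 356 CPM in TICs. Its groups overlapped, and its log2 fold change was -0.34 (SE 0.30), so it was not higher in TICs. Ptprc, which encodes CD45, was counted only in comparison replicate 1, with 33 counts.

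Promoter sequences are shown for Cd36, which differed between the groups, and for Plin2, which did not clearly do so, since both are textbook targets of PPAR receptors. They are RefSeq windows on GRCm38.p6 from 250 bases before to 50 bases after the start site, printed 5′ to 3′ on the gene's strand, with the nuclear receptor half-site AGGTCA or its reverse complement TGACCT in capitals.
Cd36, chr5:17835847-17836146, minus strand: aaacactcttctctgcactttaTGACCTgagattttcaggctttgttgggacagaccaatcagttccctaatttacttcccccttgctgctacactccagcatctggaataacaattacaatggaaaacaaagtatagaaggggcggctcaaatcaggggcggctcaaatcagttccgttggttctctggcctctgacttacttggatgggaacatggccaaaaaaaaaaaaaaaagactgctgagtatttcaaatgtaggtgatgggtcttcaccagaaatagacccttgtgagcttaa
Plin2, chr4:86670010-86670309, minus strand: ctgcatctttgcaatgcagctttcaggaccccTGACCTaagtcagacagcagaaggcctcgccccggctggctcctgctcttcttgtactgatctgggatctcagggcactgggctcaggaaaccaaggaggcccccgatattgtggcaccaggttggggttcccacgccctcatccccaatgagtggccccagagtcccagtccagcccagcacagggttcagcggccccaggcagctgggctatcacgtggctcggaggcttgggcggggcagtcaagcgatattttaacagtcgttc
Each of these windows held 1 half-site, starting at base -228 for Cd36 and at base -218 for Plin2 counted from the start site. On either strand the half-site stood in 16.3% of 32851 promoter windows, and in 4 of the 8 windows listed for 5 members (Cd36, Plin2, 2 of the 3 of Pparg, none of Fabp3 and none of Acsl1). The full direct repeat AGGTCANAGGTCA, which contains the half-site at both ends, stood in 0.0396% of all windows and in 0 of these 8. Such a match describes letters only. Fabp4, Fabp5, Lpl and Gpihbp1 had no entry in the table used.

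Cd36 and Fabp4 had the largest differences between the groups, both being higher in TICs by a fold of 6.95 and 6.71. Lpl was higher by a fold of 1.82 and Gpihbp1 by a fold of 2.77, but the samples of the groups overlapped for both. Plin2, Acsl1 and Fabp5 stayed within a fold of 1.32 on average, Pparg was counted in 1 sample, and Fabp3 in none. Of the 9 members, 7 passed the filter of more than 1 CPM in at least 3 samples, which kept 12192 genes in all. The lowest value of any of these 7 in any sample was 4.72 CPM, so none passed through one group alone.

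The transporter gene Cd36 (ENSMUSG00000002944, chr5:17781690-17888801 of GRCm38) encodes the scavenger receptor that takes up long-chain fatty acids. It measured 22.8, 34.3 and 19.2 CPM in the 3 comparison samples and 63.1, 169.5 and 298 CPM in TIC replicates 1 to 3. Every TIC sample lay above every sample of the other group, and the TIC samples themselves spanned a 4.72-fold range against 1.79-fold. The means were 176.9 ± 117.7 CPM in TICs and 25.4 ± 7.9 CPM in comparison cells (SD, n = 3 each), a log2 fold change of 2.80 (SE 0.48). Relative to the mean of comparison cells, TIC replicate 1 was 2.48-fold, replicate 2 was 6.67-fold and replicate 3 was 11.7-fold higher. Without TIC replicate 3 the log2 fold change was 2.21, and without TIC replicate 1 it was 3.21.

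**Figure D1:**
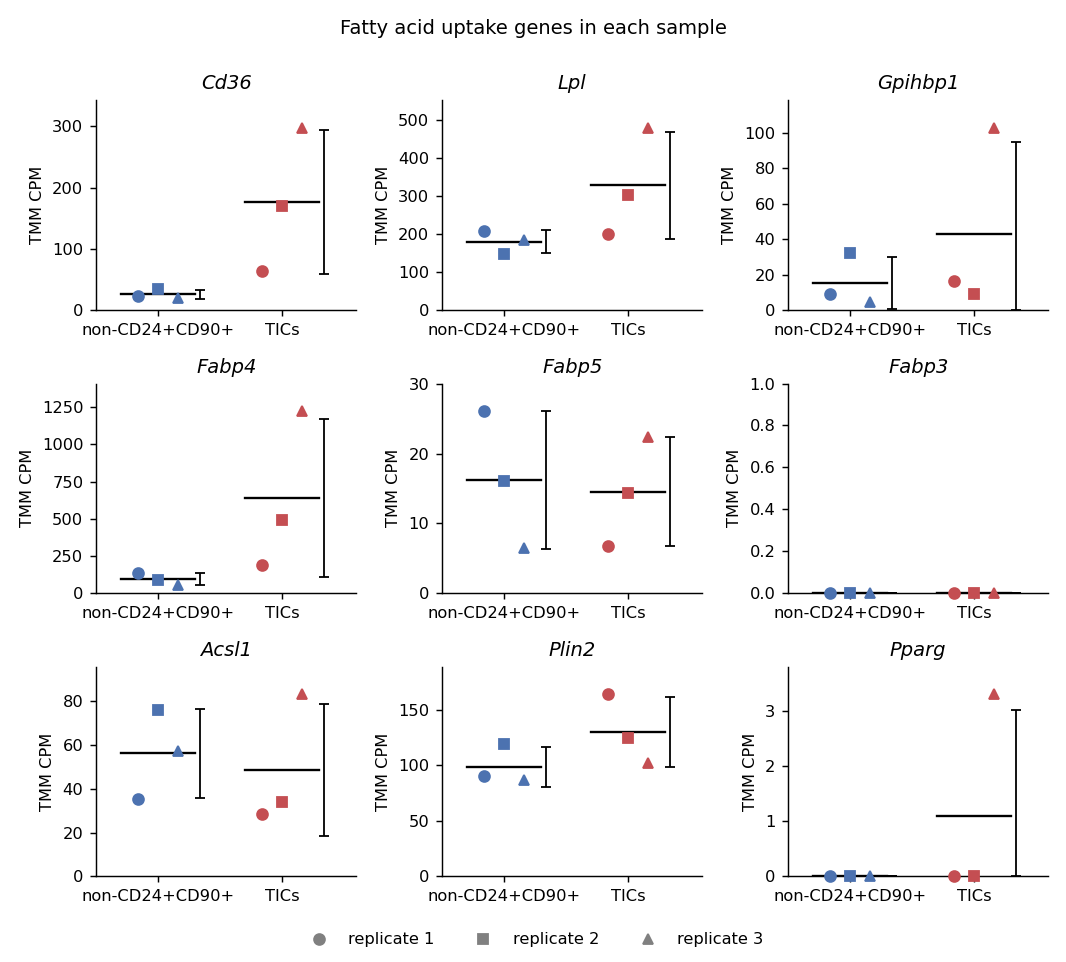
TMM-normalized CPM (vertical axis, linear from 0) of the 9 fatty acid uptake genes in 3 samples of comparison cells (non-CD24+CD90+ tumor cells, blue) and 3 of TICs (red). Symbols mark replicates, whose numbers follow the order of the samples and link none across groups, horizontal lines the mean and bars the SD, with the lower bar ending at 0 where it would pass below. Cd36 and Fabp4 are the panels in which all TIC samples lie above all others, and TIC replicate 3 is the highest sample in Cd36, Lpl, Gpihbp1, Fabp4, Acsl1 and Pparg.

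Lpl (ENSMUSG00000015568, chr8:68880491-68907448), the lipase that releases fatty acids from lipoproteins, was abundant in both groups. Its levels were 206, 147 and 185 CPM in comparison cells and 200.4, 302 and 479 CPM in TICs. TIC replicate 1 lay within the range of comparison cells and the other two TIC samples above it. The log2 fold change was 0.87 (SE 0.35), with a range from 0.51 without TIC replicate 3 to 1.14 without TIC replicate 1.

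Gpihbp1 (ENSMUSG00000022579, chr15:75596628-75599481) encodes the capillary protein that holds the lipase on the luminal side of the endothelium. It measured 9.05, 32.2 and 4.72 CPM in comparison cells and 16.2, 8.74 and 103 CPM in TICs. Only TIC replicate 3 lay above the other group. The log2 fold change of 1.47 (SE 0.89) became -0.28 without that sample and 2.63 without comparison replicate 2. The direction for Gpihbp1 thus depended on TIC replicate 3, and the size also on comparison replicate 2. Its widest ratio between 2 samples of a group was 6.83-fold in comparison cells and 11.8-fold in TICs, the widest of the 7 members in both groups.

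Among the binding proteins, Fabp4 (ENSMUSG00000062515, chr3:10204088-10208576) is the form of adipocytes and capillary endothelium. Its values were 137, 91.3 and 56.5 CPM in comparison cells and 192, 494 and 1225 CPM in TICs. The groups did not overlap, and the order of the TIC samples was that of Cd36. The log2 fold change was 2.75 (SE 0.51), and 1.88 without TIC replicate 3, so the fold in the remaining samples was smaller by more than 1.5 times. TIC replicate 1 stood 2.02-fold above the mean of comparison cells, replicate 2 stood 5.20-fold above it and replicate 3 stood 12.9-fold above it.

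Fabp5 (ENSMUSG00000027533, chr3:10012548-10016607), the epidermal form, gave no comparable picture. It measured 26.1, 16.1 and 6.44 CPM in comparison cells and 6.81, 14.3 and 22.4 CPM in TICs, and the ranges of the groups largely coincided. The log2 fold change was -0.16 (SE 0.93) and ran from -0.59 without TIC replicate 3 to 0.38 without comparison replicate 1. These values are uncertain for a further reason, since reads that did not map uniquely had been removed and Fabp5 has 5 annotated near-identical copies, with at least 93% identity over at least 300 bases. The closest, Gm6166, matched Fabp5 at 98.3% over 409 bases and held 182, 103 and 111 counts in comparison cells and 90, 210 and 147 counts in TICs. Fabp5 itself held 179, 142 and 45 counts against 62, 123 and 170 counts. Summed over Fabp5 and the 5 copies, the level was 52.7, 28.4 and 22.3 CPM in comparison cells and 20.8, 40.1 and 43.0 CPM in TICs, and the groups again overlapped.

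Fabp3 (ENSMUSG00000028773, chr4:130308595-130315463), the heart-type form, had 0 counts in all 6 samples, where 3 counts would be at most 0.442 CPM. Its pseudogene Fabp3-ps1, identical at 99.3% over 402 bases, held 1 count, in TIC replicate 2. The opposite-strand gene Zcchc17 overlaps Fabp3 and held 473 to 734 counts per sample, and the strand setting of the counting is not given in the sources used here. With uniquely mapped reads alone, a low level of Fabp3 therefore cannot be told apart from none.

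Acsl1 (ENSMUSG00000018796, chr8:46471037-46536051), which makes long-chain acyl-CoA, measured 35.3, 76.0 and 57.1 CPM in comparison cells and 28.5, 33.8 and 83.3 CPM in TICs. TIC replicates 1 and 2 lay below all samples of the other group and TIC replicate 3 above them. The log2 fold change of -0.21 (SE 0.52) became -0.83 without TIC replicate 3 and 0.07 without TIC replicate 1.

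Plin2 (ENSMUSG00000028494, chr4:86648386-86670060), the perilipin that coats droplets in most cell types and the surface of milk fat, had the narrowest spread. Its values were 90.2, 119 and 86.4 CPM in comparison cells and 164, 124 and 102 CPM in TICs. Here TIC replicate 1 was the highest sample and TIC replicate 3 the lowest of its group, the reverse of the order seen for Cd36, Fabp4 and Lpl. The log2 fold change was 0.40 (SE 0.33), with a range from 0.22 to 0.57 when single samples were left out.

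Pparg (ENSMUSG00000000440, chr6:115360951-115490399), the nuclear receptor gene, had 25 counts in TIC replicate 3, or 3.30 CPM, and 0 counts in the other 5 samples. It did not pass the filter and has no fold change.

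In edgeR's exactTest with Benjamini-Hochberg adjustment over the 12192 genes at a threshold of 0.1, 166 genes or 1.36% were called higher and 23 genes or 0.189% lower in TICs. Of the 9 members, 2 were called higher (Cd36 and Fabp4) and 0 lower, a count that follows the choice of the members and from which nothing is read. Every TIC sample lay above every other sample in 7.69% of genes kept and below in 7.55%, and the same was true of 2 and 0 of the 9 members. The median log2 fold change was 0.87 over the 7 members kept and -0.01 over all genes kept.

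**Figure D2:**
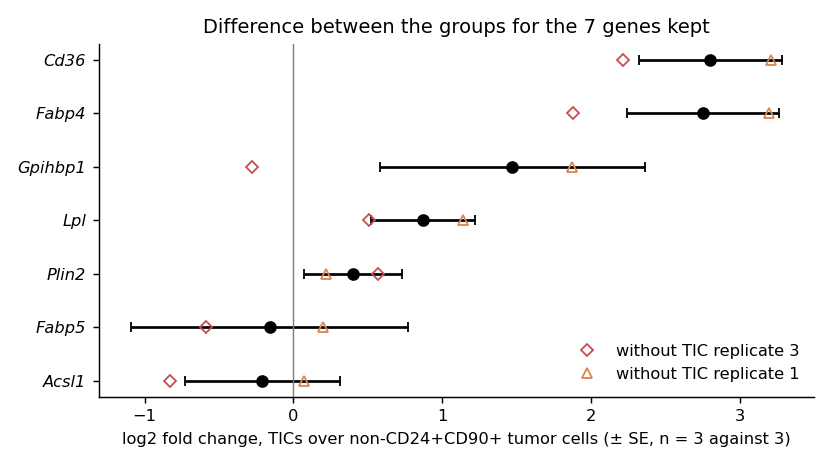
Log2 fold change (horizontal axis) of the 7 members kept, TICs over comparison cells, as black points with SE bars from all 6 samples. Open red diamonds give the value without TIC replicate 3 and open orange triangles the value without TIC replicate 1. Gpihbp1 moves from 1.47 to -0.28 without TIC replicate 3, whereas Cd36 and Fabp4 stay at 2.21 and 1.88.

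To compare levels between genes, CPM was divided by the length of the longest principal mRNA of each gene in kilobases, from 825 bases for Gpihbp1 to 4115 bases for Lpl. This length was chosen after seeing the data, because the union of all annotated exons, 4489 bases for Fabp4 against an mRNA of 896 bases, includes retained introns. In comparison cells the order, in mean CPM per kilobase of mRNA, was Fabp4 at 106 ± 44.9, Plin2 at 52.1 ± 9.3, Lpl at 43.6 ± 7.3, Gpihbp1 at 18.6 ± 17.9, Fabp5 at 16.4 ± 9.97, Acsl1 at 14.4 ± 5.2 and Cd36 at 7.47 ± 2.32 (SD, n = 3). The intervals of mean ± SD of all neighbours in this order overlapped. In TICs Fabp4 came first at 711 ± 593 CPM per kilobase of mRNA, followed by Lpl at 79.5 ± 34.2, Plin2 at 68.9 ± 16.6, Cd36 at 52.0 ± 34.6, Gpihbp1 at 51.6 ± 63.4, Fabp5 at 14.7 ± 7.9 and Acsl1 at 12.4 ± 7.8. Here Fabp4 lay above Lpl beyond the SD, and all later neighbours overlapped. By its mean Cd36 was the lowest of the 7 in comparison cells and stood among Lpl, Plin2 and Gpihbp1 in TICs. Per kilobase of exon union the order was another, with Plin2 first in comparison cells at 28.0 and Fabp4 first in TICs at 141.9.

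The ratio of Fabp4 to Cd36, both per kilobase of mRNA, was 22.8, 10.1 and 11.2 in comparison cells and 11.5, 11 and 15.6 in TICs, and the groups overlapped. The ratio of Fabp4 to Fabp5, in contrast, was 5.77, 6.24 and 9.67 in comparison cells and 31.0, 37.9 and 60.2 in TICs, without overlap between the groups. Lpl over Gpihbp1 ran from 0.914 to 7.84 and from 0.934 to 6.92, so the lipase and its capillary partner held no fixed proportion in either group.

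TIC replicate 3 was the highest sample for 5 of the 7 members kept, against 21.9% of all genes kept. The members were chosen with the group difference known, so nothing is read from this count. The SD of log2 CPM among TICs was 1.13 for Cd36, 1.34 for Fabp4 and 1.83 for Gpihbp1, against a median of 0.732 over all genes kept. For Plin2 it was 0.344. An SD above 1 among TICs was common, at 37.8% of all genes kept, and the median was 0.555 over genes with a mean of 10 CPM or more. Among comparison cells the SD was 0.426 for Cd36, 0.636 for Fabp4, 1.38 for Gpihbp1 and 0.247 for Plin2. The median there was 0.582 over all genes kept and 0.434 over genes with a mean of 10 CPM or more.

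The likeness of expression patterns was measured as Pearson's r of log2 CPM over the 6 samples, which form 2 groups, so that a difference between the groups that 2 genes share raises the value. Cd36 and Fabp4 had r = 0.96, Fabp4 and Lpl r = 0.94, and Cd36 and Lpl r = 0.88. Gpihbp1 had values from 0.52 to 0.64 with these 3 genes, and Plin2 values from -0.08 to 0.34. Among 8732 other genes with a mean of at least 10 CPM, those most like Cd36 were Dnajc3 (0.998), Ablim1 (0.996), Adamts2 (0.995), Col4a1 (0.995) and Cpxm2 (0.993). Those most like Fabp4 were Apold1 (0.995), Mmrn2 (0.992), Nes (0.991), Fbxl14 (0.991) and Aqp1 (0.986), and those most like Lpl were Ankrd12 (0.994), Abcg2 (0.992), Piezo2 (0.991), Irak4 (0.988) and Pdgfrl (0.983). A value above 0.9 was reached by 174 genes for Cd36, 170 for Fabp4 and 153 for Lpl.

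Endothelial markers were summed in each sample beside the members. The summed level of 15 endothelial markers was 457, 399 and 310 CPM in comparison cells and 453, 884 and 2040 CPM in TICs, of which the first lay within the comparison range. All 15 were kept, all 15 had a log2 fold change above 0 (median 1.21), 13 of them were highest in TIC replicate 3, and 2 were called higher. These were Robo4, an endothelial guidance receptor, with a log2 fold change of 2.72 (SE 0.62, adjusted p = 0.0096 in edgeR's exactTest), higher in 3 of 3 TIC samples than in any other sample, and Ptprb, an endothelial phosphatase, with 1.95 (SE 0.57, adjusted p = 0.083) and overlapping groups. With each sample left out in turn, Robo4 was called in 3 of 6 fits (log2 fold change 1.79 and adjusted p = 0.4 in exactTest without TIC replicate 3) and Ptprb in 2 of 6. Neither was called in edgeR's quasi-likelihood test (adjusted p = 0.15 and 0.3). Flt1, a VEGF receptor, was the most abundant of the list and was not called (log2 fold change 1.63, SE 0.55, adjusted p = 0.18), although it was without TIC replicate 1 (log2 fold change 2.09). In bulk samples a larger number of endothelial cells and more RNA of a gene per cell cannot be told apart.

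The 8 markers of capillary endothelium summed to 46.1, 47.1 and 59.2 CPM in comparison cells and to 113, 169 and 528 CPM in TICs. Of the 5 that were kept, 3 were called higher in edgeR's exactTest. Aqp1, a water channel, had a log2 fold change of 2.29 (SE 0.46, adjusted p = 0.0012), Cd300lg one of 2.88 (SE 0.74, adjusted p = 0.04) and Btnl9 one of 2.87 (SE 0.81, adjusted p = 0.083), with 3 of 3 TIC samples above all others for Aqp1 and Cd300lg. Aqp1 was called in 6 of the 6 fits that left out a sample, Cd300lg in 3 and Btnl9 in 2. Without TIC replicate 3 the log2 fold changes of Cd300lg and Btnl9 were 2.20 and 0.69 and neither was called, nor was either in edgeR's quasi-likelihood test (adjusted p = 0.21 and 0.31). Of the 3 markers below the filter, Meox2, a transcription factor of capillaries, had 111 counts in TIC replicate 3 and 0 counts elsewhere. Car4 had 64 counts in comparison replicate 3, 2 counts in TIC replicate 3 and 0 counts elsewhere. Timp4 had 1 count in comparison replicate 2, 7 and 52 counts in TIC replicates 2 and 3, and 0 counts elsewhere. Meox2 and Tcf15 also stand in the list of PPAR partners given below, and Plin1, Plin4, Cidec and Lipe of the adipocyte markers in that of droplet genes.

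Set against the endothelial sum of the same sample, Cd36 amounted to 4.98, 8.59 and 6.19 CPM per 100 CPM of endothelial markers in comparison cells and to 13.9, 19.2 and 14.6 in TICs. Fabp4 amounted to 29.9, 22.9 and 18.2 against 42.4, 55.9 and 60.2. For both genes the groups did not overlap after this division. Against the capillary sum, a comparison added after seeing the data, they did, with Cd36 at 49.4, 72.8 and 32.4 CPM per 100 CPM in comparison cells and 55.8, 100 and 56.4 in TICs, and Fabp4 at 297, 194 and 95.4 against 170, 292 and 232. Aqp1, the most abundant of the capillary markers, is also among the genes most like Fabp4 (r = 0.986). A sum that holds it partly follows the pattern of Fabp4, so nothing is read from this overlap. Lpl per 100 CPM of endothelial markers was 36.8 to 59.6 in comparison cells and 23.5 to 44.2 in TICs, and Gpihbp1 was 1.52 to 8.08 against 0.989 to 5.05. Acsl1 and Fabp5 lay lower in TICs on this scale, at 3.83 to 6.28 against 7.73 to 19.1 and at 1.1 to 1.62 against 2.08 to 5.72. Undivided, both genes overlapped between the groups, while the mean of the endothelial sum was 2.89-fold higher in TICs. Plin2 was 19.7 to 29.7 in comparison cells and 5 to 36.2 in TICs. Divided by the capillary sum, itself higher in TICs, Lpl was 312 to 447 in comparison cells and 90.6 to 179 in TICs. Plin2 was 146 to 252 against 19.3 to 145, Acsl1 76.6 to 161 against 15.8 to 25.2, and Fabp5 10.9 to 56.6 against 4.25 to 8.48. The groups did not overlap for these genes, but they did for Gpihbp1. What part endothelial RNA had in the member genes was not tested.

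**Figure D3:**
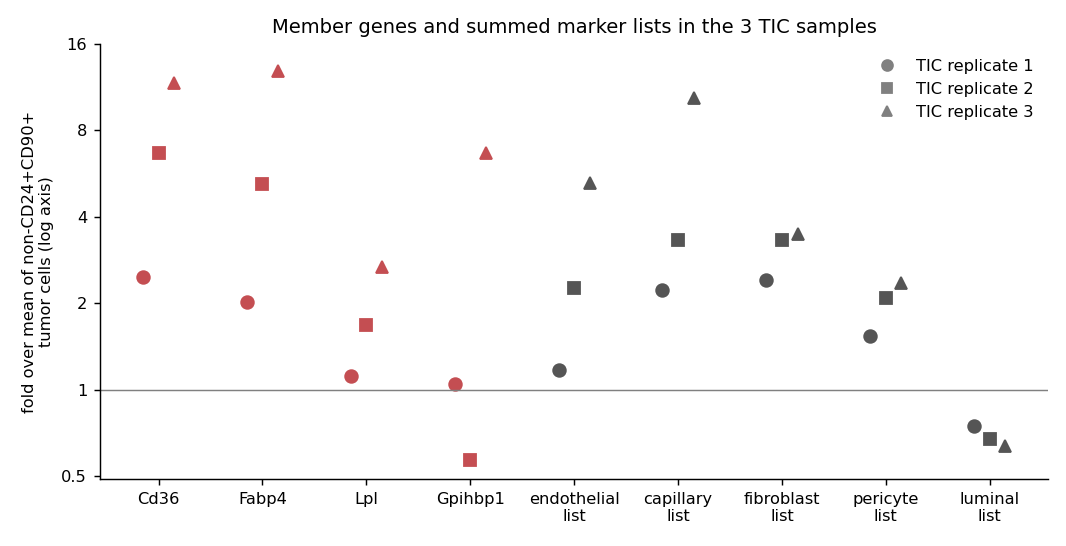
Level in each TIC sample as a fold over the mean of comparison cells (vertical axis, log scale), for 4 member genes (red) and for the summed CPM of 5 marker lists (grey). Circles, squares and triangles are TIC replicates 1, 2 and 3, which reach 2.48, 6.67 and 11.7 for Cd36 and 1.17, 2.27 and 5.24 for the endothelial list. The luminal list lies below 1 in all 3 samples.

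Adipocytes express most of the members strongly, and their markers were summed in the same way. Of 12 adipocyte markers, 7 had 0 counts in all 6 samples, among them the defining genes Adipoq, Lep, Retn, Plin1, Plin4 and Pck1, and the whole list summed to 1.13 to 13.7 CPM in comparison cells and to 0.132 to 10.5 CPM in TICs. Lipe, the hormone-sensitive lipase and the only one of the 12 that was kept, was not called (log2 fold change -2.42, SE 2.02, adjusted p = 1 in edgeR's exactTest). The counts of Lipe were 35, 0 and 95 in comparison cells and 24, 7 and 0 in TICs. Those of Cfd, below the filter, were 48, 6 and 1 in comparison cells and 0, 65 and 0 in TICs. As given above, a count of 0 in a sample is weak evidence. Any part of adipocyte RNA in the member genes was not tested.

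Macrophages, which the depletion of CD45-positive cells in the sort should remove, can also express Cd36 and Fabp4. The 12 macrophage and leukocyte markers summed to 121, 140 and 111 CPM in comparison cells and to 268, 179 and 156 CPM in TIC replicates 1 to 3. Adgre1, the defining F4/80 gene, had 0 counts in all samples. Of 8 markers kept, 1 was called, the lysozyme gene Lyz2 (log2 fold change 2.68, SE 0.63, adjusted p = 0.012 in edgeR's exactTest, higher in 3 of 3 TIC samples), which was lost without TIC replicate 2 (adjusted p = 0.22) or comparison replicate 3 (adjusted p = 0.13), and in edgeR's quasi-likelihood test (adjusted p = 0.14). Cd14 and C1qa, the most abundant of the list, were not called, with log2 fold changes of -0.01 and 0.85. Of the 8 kept, 4 had log2 fold changes above 0 and 4 below. Every TIC sample lay above every other sample for 3 of the 8 (Lyz2, C1qa and C1qb), against 7.69% of all genes kept. The part of macrophage RNA in the member genes was not tested.

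The sums of the stromal lists were higher in TICs in a way that varied less among the TIC samples. The 9 fibroblast markers summed to 2850 to 3230 CPM in comparison cells and to 7450 to 10800 CPM in TICs, and 5 of the 8 kept were called higher (Col1a1, Col1a2, Dcn, Dpt and Pi16). Of the 6 fits that left out a sample, Col1a1 and Col1a2 were called in 6, Dpt in 5, Dcn in 4 and Pi16 in 2, and edgeR's quasi-likelihood test did not call Dcn (adjusted p = 0.11) or Pi16 (adjusted p = 0.21). The 9 pericyte and smooth muscle markers summed to 540 to 665 CPM and to 950 to 1450 CPM, with only Rgs5 called higher (log2 fold change 1.45, SE 0.28, adjusted p = 0.000466 in edgeR's exactTest). Rgs5 was the largest part of the sum, with means of 243 CPM in comparison cells and 665 CPM in TICs. Of the 9, 8 had log2 fold changes above 0 and 1 below, and the groups overlapped for 5. The smooth muscle markers Acta2 and Myh11 had log2 fold changes of -0.01 and 0.07. The 10 luminal epithelial markers summed to 6170 to 6560 CPM and to 4110 to 4810 CPM, and all 10 had log2 fold changes at or below 0 (median -0.39) with 0 called in edgeR's exactTest, whereas DESeq2 called Krt18 lower (log2 fold change -0.66, adjusted p = 0.0018). Of 5 myoepithelial and 8 milk fat and lactation markers, 0 were called, and their median log2 fold changes were 0.11 and -0.32. The part of these cell types in the member genes was not tested.

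The remaining genes of fatty acid handling were taken in 6 lists of 125 genes, of which 85 were kept. Of these, 1 was called higher and 2 lower in edgeR's exactTest, 34 had log2 fold changes above 0 and 51 below, and the median was -0.18 against -0.01 over all genes kept. The median of each list lay between -0.53 and 0.20.

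Among 24 further uptake and transport genes, which include fatty acid transport proteins, caveolins and lipoprotein receptors, 14 were kept and the median log2 fold change was 0.20. Lrp1, a large endocytic receptor for lipoprotein remnants, was called higher. It measured 144, 186 and 261 CPM in comparison cells and 439, 385 and 554 CPM in TICs, with 3 of 3 TIC samples above all others, a log2 fold change of 1.22 (SE 0.31) and an adjusted p = 0.021 in edgeR's exactTest. The call was lost without comparison replicate 1 (adjusted p = 0.25) or 2 (adjusted p = 0.24), and in edgeR's quasi-likelihood test (adjusted p = 0.12). The most abundant of the list were Dbi, an acyl-CoA binding protein, and the tetraspanin Cd9, with log2 fold changes of -0.18 (SE 0.30) and 0.10 (SE 0.30), neither called. The binding protein genes Fabp1, Fabp2, Fabp7 and Fabp12 and the transport protein genes Slc27a2, Slc27a5 and Slc27a6 had 0 counts in all 6 samples.

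The acyl-CoA synthetases, the enzyme class of Acsl1, had 8 of 13 genes kept, 0 called and a median log2 fold change of -0.31. Acsl4, which prefers arachidonic acid, was the most abundant with a log2 fold change of -0.47 (SE 0.31), followed by Acss1 with -0.74 (SE 0.39). The partners of the lipase, which are folding factors, activators, inhibitors and proteases, had 11 of 17 kept, 0 called and a median of 0.05. Sel1l, which helps Lpl leave the endoplasmic reticulum, measured 417 to 505 CPM in all samples (log2 fold change -0.12, SE 0.27), and Apoe had a log2 fold change of 0.05 (SE 0.32). The activator genes Apoc2 and Apoa5 had 0 counts in all samples.

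PPAR partners and regulators had 15 of 19 kept, 0 called and a median log2 fold change of -0.24. Cebpb, an adipogenic transcription factor, and the corepressor Ncor1 were the most abundant, with log2 fold changes of 0.05 (SE 0.28) and 0.07 (SE 0.31). Fatty acid oxidation had 20 of 24 kept, 0 called and a median of -0.21, with Echs1 at -0.61 (SE 0.34) and Ucp2 at -0.42 (SE 0.31). Cpt1b, the muscle form of the mitochondrial entry enzyme, had 0 counts.

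The droplet and triglyceride list, which holds the enzymes that store what is taken up, had the lowest median at -0.53, with 4 of 17 genes kept above 0 and 13 below. Gpd1, which supplies the glycerol backbone, was called lower, at 104, 136 and 95.1 CPM in comparison cells and 27.6, 61.0 and 45.3 CPM in TICs (log2 fold change -1.32, SE 0.40, adjusted p = 0.085 in edgeR's exactTest). Lpin1, a phosphatidate phosphatase, was also called lower, at 76.0, 104.5 and 126 CPM against 32.1, 56.1 and 26.9 CPM (log2 fold change -1.41, SE 0.42, adjusted p = 0.082). In both genes 3 of 3 TIC samples lay below all others, but of the 6 fits that left out a sample only the one without TIC replicate 2 still called them. Without TIC replicate 3, for example, their log2 fold changes were -1.31 and -1.20. The quasi-likelihood test of edgeR called neither (adjusted p = 0.24 and 0.23). The abundant Mgll and Plin3 were not called, with log2 fold changes of 0.46 (SE 0.31) and -0.53 (SE 0.27).

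**Figure D4:**
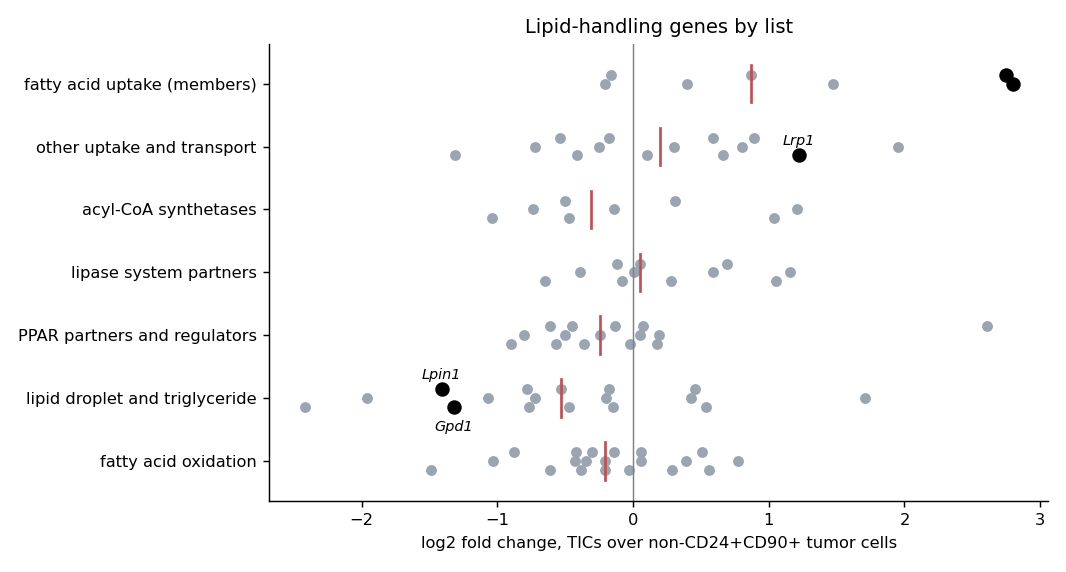
Log2 fold change (horizontal axis), TICs over comparison cells, of each gene kept in the 6 lipid-handling lists and of the 7 members kept. Large black points are genes called in edgeR's exactTest, grey points are not called and red bars are list medians, from -0.53 for droplet and triglyceride genes to 0.20 for other uptake genes and 0.87 for the members.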

How the data were processed

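The authors trimmed the reads with Trimmomatic (version 0.32), aligned them to GRCm38 with STAR (version 2.4.0), removed reads that did not map uniquely with samtools (version 1.1), counted reads per gene with HTSeq and deposited raw counts for 41388 Ensembl genes. The strand setting and the annotation release are not given in the sources used here. Symbols, exon and mRNA lengths came from GENCODE M21. Genes were kept if 3 samples or more exceeded 1 CPM, a threshold the study does not state. The groups, taken from the sample labels, were compared with edgeR (version 4.0.16, R version 4.3.3) by TMM and exactTest, the study's test, with Benjamini-Hochberg adjusted p-values called below 0.1. SEs came from the negative binomial fit with tagwise dispersions, log2 CPM used a prior count of 2, and the scripts were tested on simulated data. Near-identical copies were found with BLAST (version 2.17.0).

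The members, the gene lists and the marker lists were chosen with earlier results of these data known. One marker list is not reported here. Taken as named genes were all 9 members, every called gene and the 2 most abundant kept genes of each list, and the 5 genes most like Cd36, Fabp4 and Lpl. Not all of these named genes are described here, and some genes below the filter are given by count alone. Alternatives were edgeR's quasi-likelihood test, filterByExpr, DESeq2 (version 1.42.0), no scaling beyond library size, RLE size factors, no filter, an adjusted p below 0.05, and each sample left out in turn.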

Additional observations from a re-analysis of the deposited data

How the results depend on the processing

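The log2 fold change ran from 2.21 to 3.21 for Cd36 and from 1.88 to 3.19 for Fabp4 over the 12 alternative fits. The median log2 fold change of the members ran from 0.51 to 1.14 when single samples were left out, the number of members called from 2 to 3 and the number with TICs above all other samples also from 2 to 3, the third of the latter being Lpl or Plin2 depending on the sample left out. The number with TICs below all others ran from 0 to 1, the 1 being Acsl1 without TIC replicate 3. Nothing is read from these counts of members. Groups separate more easily with fewer samples, and the share of all genes that did so in these fits is not given.

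Counts over all genes depended more on the method. Genes called higher in TICs numbered 166, with 109 at an adjusted p below 0.05, 108 with no filter and 49 in the quasi-likelihood test. DESeq2 called 231 higher, library size alone 127, and the fits with single samples left out 69 to 225. Genes called lower numbered 23, with 7, 4 and 1 in the first 3 of these settings. DESeq2 called 75 lower, library size alone 26, and the fits with single samples left out 2 to 98. Of the lipid-handling genes, 1 was called higher, with 2 in DESeq2, 0 in the quasi-likelihood test and 0 to 2 with single samples left out. Called lower were 2, with 1 under RLE size factors, 0 at an adjusted p below 0.05, 0 with no filter, 0 in the quasi-likelihood test and 0 to 2 with single samples left out. The cause of these shifts was not tested.

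Besides Gpihbp1, Fabp5 and Acsl1, the sign changed in 8 named genes, which were called in none of these fits. Cd14 moved from -0.01 to 0.02 in DESeq2, 0.02 under RLE size factors and 0.01 with no filter, and Apoe and Cebpb moved to -0.01 under library size alone. With single samples left out the log2 fold change ran from -0.21 to 0.19 for Cd14, from -0.11 to 0.36 for Apoe, from -0.12 to 0.18 for Cebpb, from -0.30 to 0.02 for Dbi, from -0.03 to 0.32 for Cd9, from -0.14 to 0.32 for Ncor1, from -0.36 to 0.83 for Krt5 and from -0.39 to 0.24 for Sox10. No paired analysis was possible because the labels give no replicate numbers that link samples of the 2 groups. With 3 samples a group and between 6781239 and 9100552 counts each, Pparg and Fabp3 could not be compared.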
